A study of Rattus norvegicus with 8 samples.

Results

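The sodium-potassium pump exchanges sodium for potassium across the cell membrane at the cost of ATP, and a neuron depends on it to restore its ion gradients after firing. Each pump joins a catalytic subunit to a smaller glycosylated beta subunit, which brings the complex to the cell surface and tunes its affinity for potassium. The beta subunit genes Atp1b1, Atp1b2 and Atp1b3 were chosen as members by gene name, 3 of 12485 distinct gene names on the array, and they were represented by 5 probes (1 for Atp1b1, 3 for Atp1b2 and 1 for Atp1b3). Atp1b1 encodes the beta 1 subunit, abundant in neurons. Atp1b2 encodes the beta 2 subunit, best known from astrocytes, where it also acts in adhesion. Atp1b3 encodes the beta 3 subunit, which is found in many tissues.

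RNA was measured in CA3 hippocampal neurons of Sprague-Dawley rats on 8 single-colour Agilent arrays, 2 per group. Naive rats were untreated, sham rats had sham injury, and the other 2 groups came from rats given moderate fluid percussion injury to the brain, with all brains taken at 24 h. Surviving neurons were negative and dying neurons positive for Fluoro-Jade, a stain of degenerating neurons, and about 600 neurons captured by laser made up a pool of either kind. Each such pool held cells of several rats, so the spread between arrays is that between pools. Surviving and dying neurons shared 1 slide and naive and sham neurons the other. The extraction protocol also differed between these slides (GE1-v5_91_0806 and GE1-v5_95_Feb07). Any comparison of injured with sham neurons therefore cannot be told apart from the slide or the protocol.

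The median signal of an array before scaling was 27.2 and 22.7 (naive), 16.5 and 16.4 (sham), 52.2 and 48.2 (surviving), and 19.2 and 52.6 (dying) (replicates 1 and 2). The 4 arrays from naive and sham rats and dying replicate 1 were thus dim, and both surviving arrays and dying replicate 2 were bright. The number of probes well above background was 22445 and 22390 (naive), 20910 and 20191 (sham), 29345 and 27079 (surviving), and 24057 and 27995 (dying), of 41012. The values below are log2 of the signal divided by the median of its array, so that 1 unit is a doubling, and levels of different probes are not set against each other.

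Atp1b1 gave 12.22 and 12.52 (naive), 13.04 and 12.96 (sham), 11.89 and 11.95 (surviving), and 10.55 and 11.18 (dying). Sham arrays were the highest, followed by naive, surviving and dying arrays, and no group overlapped the next. The group means were 12.37 ± 0.21, 13.00 ± 0.06, 11.92 ± 0.04 and 10.86 ± 0.45 in that order of groups (SD, n = 2), and only the difference between dying and sham neurons passed the test across all probes. Before scaling, the signal was 130000 and 133000 (naive), 138000 and 131000 (sham), 198000 and 191000 (surviving), and 28800 and 122000 (dying). The unscaled signal was therefore low on dying replicate 1 and highest on the surviving arrays, where the array medians were also high. The number of probes brighter than Atp1b1, which no scaling alters, was 14 and 20 (naive), 13 and 12 (sham), 40 and 29 (surviving), and 250 and 69 (dying).

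Atp1b3 gave 7.11 and 7.79 (naive), 7.99 and 7.86 (sham), 6.54 and 6.16 (surviving), and 5.97 and 6.09 (dying). Both sham arrays lay above both naive arrays, and all 4 arrays of injured rats lay below these, with surviving and dying neurons apart by less than the spread within surviving neurons. Its unscaled signal was 3760 and 5030 (naive), 4200 and 3800 (sham), 4870 and 3440 (surviving), and 1210 and 3580 (dying). Apart from dying replicate 1, these signals covered 1 range in all groups. The number of brighter probes was 2218 and 2077 (naive), 2210 and 2062 (sham), 2846 and 3030 (surviving), and 3187 and 2852 (dying), and was larger on all arrays of injured rats than on any other array.

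The brightest Atp1b2 probe, A_43_P10996, gave 9.18 and 9.46 (naive), 9.76 and 9.26 (sham), 8.22 and 8.33 (surviving), and 9.55 (dying replicate 1). Both surviving arrays were lower than every other array measured. The spot on dying replicate 2 was marked as non-uniform and left out, and with all spots kept it read 8.24, within the range of the surviving arrays, so that the dying neurons had either 1 value or a pair as far apart as sham and surviving neurons. The unscaled signal was 15800 and 16000 (naive), 14300 and 10000 (sham), 15600 and 15500 (surviving), and 14400 (dying replicate 1), with 16100 in dying replicate 2 when kept. The probes brighter than it numbered 630 and 743 (naive), 759 and 884 (sham), 1261 and 1044 (surviving), and 516 (dying replicate 1), with 912 in dying replicate 2 when kept.

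The other 2 Atp1b2 probes carry the same transcript accession and were dim. A_44_P452240 was not well above background on any array. A_43_P11439 was well above background on both surviving arrays only, at -1.90 and -0.81. It passed the filter only through those arrays, so its direction is not set against that of the bright probe. Its surviving mean was at least 1.28-fold higher than the dying one, and the difference did not pass the test (limma, adjusted p = 0.154). Such a bound sets the bright group against the lowest signal counted as well above background on each dim array, or the probe's own signal where higher.

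**Figure D1:**
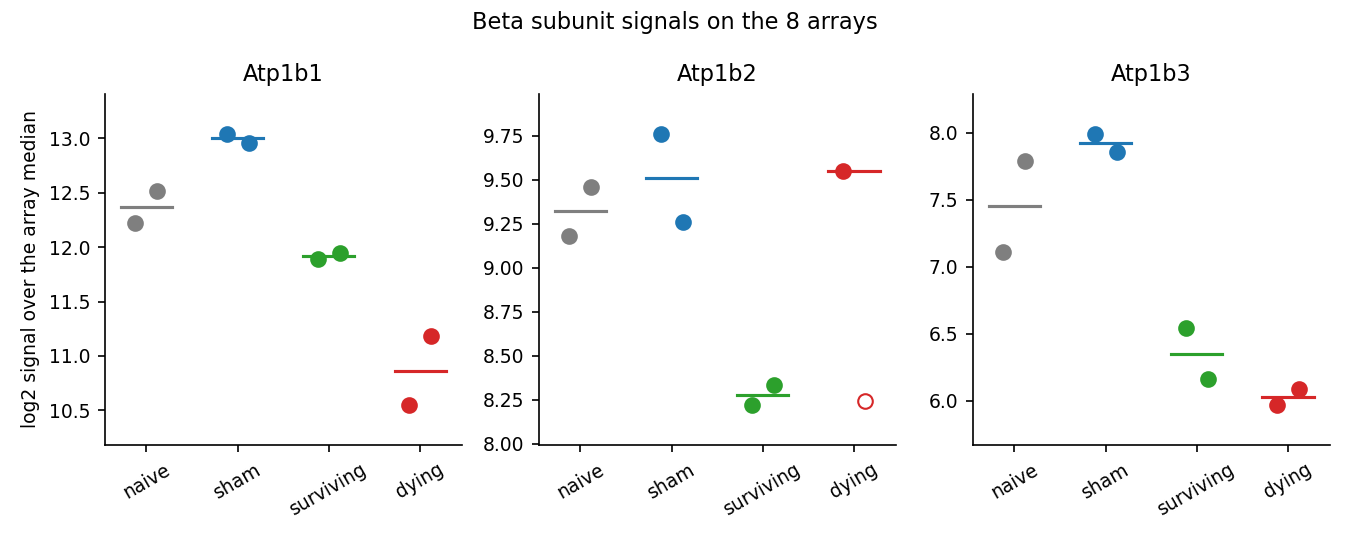
Log2 signal over the array median of the main probe of each beta subunit on the 8 arrays, with points for arrays and lines for group means. Atp1b1 and Atp1b3 were lowest in dying and highest in sham neurons, and the open Atp1b2 point at 8.24 is the non-uniform spot that was left out.

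Promoters of Atp1b2 and Atp1b3 are shown because Atp1b3 was called in dying neurons against sham in the main setting and Atp1b2 was not. The difference between these genes was not tested, and Atp1b2, with 1 dying array, was also lower with all spots kept. Atp1b1 had no entry. Each runs from 250 bases before to 50 bases after the start, from RefSeq in build GRCr8. Atp1b2 lies at chr10:54823659-54823958 and Atp1b3 at chr8:105821102-105821401, both on the minus strand. Capitals mark the GC box GGGCGG on either strand, which matched 2 times in Atp1b2 and 6 times in Atp1b3, and in 33.1% of 33469 promoters of this length.
Atp1b2: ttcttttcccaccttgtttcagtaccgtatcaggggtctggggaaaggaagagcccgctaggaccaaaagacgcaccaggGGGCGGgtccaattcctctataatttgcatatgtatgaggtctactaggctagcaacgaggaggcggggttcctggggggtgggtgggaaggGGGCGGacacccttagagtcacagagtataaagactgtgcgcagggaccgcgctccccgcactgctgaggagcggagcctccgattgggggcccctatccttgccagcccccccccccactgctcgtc
Atp1b3: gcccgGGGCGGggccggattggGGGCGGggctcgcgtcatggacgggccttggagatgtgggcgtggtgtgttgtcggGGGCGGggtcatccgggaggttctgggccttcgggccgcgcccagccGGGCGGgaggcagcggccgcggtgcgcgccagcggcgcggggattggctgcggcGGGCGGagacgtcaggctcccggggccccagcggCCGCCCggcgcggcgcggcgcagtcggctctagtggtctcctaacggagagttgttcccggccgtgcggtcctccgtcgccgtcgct
The CCAAT box (CCAAT) matched 2 times in each promoter and in 37.5% of all. The TATA box (TATAAA) matched 1 time in Atp1b2 and 0 times in Atp1b3, against 14.2% of all, and the E box CACGTG matched 0 times in both, against 6.42%. GC content was 60.3% in Atp1b2 and 77.7% in Atp1b3, and the median promoter had 51.7%.

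The study's own question was how surviving neurons differ from dying neighbours, and these arrays share a slide. Atp1b1 was 2.08-fold higher in surviving than in dying neurons in both surviving arrays over both dying arrays, a log2 difference of 1.06 (95% interval 0.03 to 2.08), and did not pass the test (limma, adjusted p = 0.221). Atp1b2 differed by -1.28 on 1 dying array, with the spread taken from the groups of 2 arrays. Atp1b3 differed by 0.32 (-0.73 to 1.37, adjusted p = 0.72 with limma). Thus 0 of 3 members passed the adjusted threshold, as did 0 of 27391 probes tested (0%) with limma, while 5896 probes (21.5%) and 1 member, Atp1b1, had an unadjusted p under 0.05. The arrays of the 2 groups did not overlap for 3 of 3 members and for 52.2% of probes tested, so that separation by itself was common. With all spots kept, Atp1b2 overlapped, and the count was 2 of 3. Of all probes tested, 79.7% had a lower difference than Atp1b1, 13.1% than Atp1b2 and 56.5% than Atp1b3, around a median of 0.14. The call count was 5994 without dying replicate 2 and 0 without dying replicate 1.

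The direction of Atp1b1 was the same under all 8 scalings and backgrounds tried (0.71 to 1.29), with 0 calls. Atp1b2 was lower in surviving neurons under all 8 (-1.72 to -0.34), and Atp1b3 changed sign (-0.04 to 0.63).

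In surviving neurons the members lay below sham, and in the main setting the difference passed the test for Atp1b3 alone. Atp1b3 was 2.98-fold lower (log2 difference -1.57, 95% interval -2.61 to -0.54, adjusted p = 0.0465 with limma), with both surviving arrays under both sham arrays. Atp1b1 differed by -1.08 (-2.09 to -0.06, adjusted p = 0.118) and Atp1b2 by -1.23 (-2.32 to -0.15, adjusted p = 0.101). The count of members called was 1 of 3, beside 18.9% of 26905 probes, of which 12.0% were called lower and 6.82% higher. No array of the 2 groups overlapped for 3 of 3 members and for 77.0% of probes. The median of all probes was -0.43, and the members lay -0.65 (Atp1b1), -0.81 (Atp1b2) and -1.15 (Atp1b3) from it.

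The Atp1b3 call was weak, since it held under 1 of 8 scalings and backgrounds (adjusted p 0.0465 to 0.447), although its direction was negative in 8 of 8 (-1.77 to -0.45). It was lost without sham replicate 1, sham replicate 2, surviving replicate 1 or surviving replicate 2 (differences -1.77 to -1.38, adjusted p up to 0.284). Atp1b1 was negative in 7 of 8 and 0.04 with normexp background correction, and Atp1b2 likewise turned to 0.14. Atp1b2 was called lower without either dying array (adjusted p 0.0475), and Atp1b1 and Atp1b2 were called lower when only the 2 groups compared were fitted (0.0329 and 0.0304, in ranges of 0.0329 to 0.968 and 0.0304 to 0.795).

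In dying neurons Atp1b1 and Atp1b3 fell below sham, and Atp1b2 did not pass the test. Atp1b1 fell 4.39-fold (log2 difference -2.13, 95% interval -3.14 to -1.12, adjusted p = 0.00772 with limma), and both dying arrays were below both sham arrays. Atp1b3 fell 3.72-fold (-1.89, -2.93 to -0.86, adjusted p = 0.0127), again without overlap. Atp1b2 differed by 0.04 on 1 dying array, with the spread taken from the groups of 2 arrays. With all spots kept it differed by -0.62. Of the 8 scalings and backgrounds, 1, normexp with quantile normalization, called Atp1b2 higher (0.94), again on 1 dying array. So 2 of 3 members were called, both lower, beside 44.1% of 25623 probes, with 29.0% lower and 15.1% higher, and a share of 76.7% of probes did not overlap, as did 2 of 3 members. Of the probes tested, 21.6% had a lower difference than Atp1b1 and 25.3% than Atp1b3, so neither fall was unusual among these probes. Both comparisons with sham use the same sham arrays and do not support each other.

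The fall of Atp1b1 in dying neurons was negative in 8 of 8 scalings and backgrounds (-2.13 to -1.13) and called in 7, the exception being normexp (adjusted p 0.0671, in a range of 0.00772 to 0.0671). That of Atp1b3 was negative in 8 of 8 (-1.89 to -0.62) and called in 5. Both calls were lost without sham replicate 1 (adjusted p 0.0685 for Atp1b1 and 0.0942 for Atp1b3) and without sham replicate 2 (0.0521 and 0.0679).

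The choice of scaling moved the median of all probes. Against the main scaling, other settings moved the median of all probes by -0.19 to 0.98 in surviving against sham, 0.15 to 1.01 in dying against sham, -0.42 to -0.06 in sham against naive, and -0.34 to 0.07 in surviving against dying, where normexp with quantile normalization moved it by -0.12. The calls in surviving against sham, 1834 higher and 3240 lower in the main setting, became 4134 and 1496 with the 75th percentile, 2242 and 1537 with quantile normalization, 5120 and 1277 with the median of probes above background on all arrays, 1160 and 3366 with the median of RefSeq probes, 4407 and 1443 with the authors' series values, and 1470 and 1095 with normexp. In dying against sham, 3863 higher and 7426 lower became 7050 and 4763, 5261 and 4086, 8359 and 3827, and 7359 and 4327 with the first 3 of these and the series values. Lower calls stayed the larger share with the median of RefSeq probes in both comparisons (4024 higher and 6216 lower in dying neurons) and with normexp in dying neurons (3149 and 4091). With normexp and quantile normalization they did so in surviving neurons (1349 and 1650) and, narrowly, in dying neurons (4586 and 4655). The balance of calls therefore turned with some scalings and not with others, while the falls of Atp1b1 and Atp1b3 in dying neurons kept their sign.

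**Figure D2:**
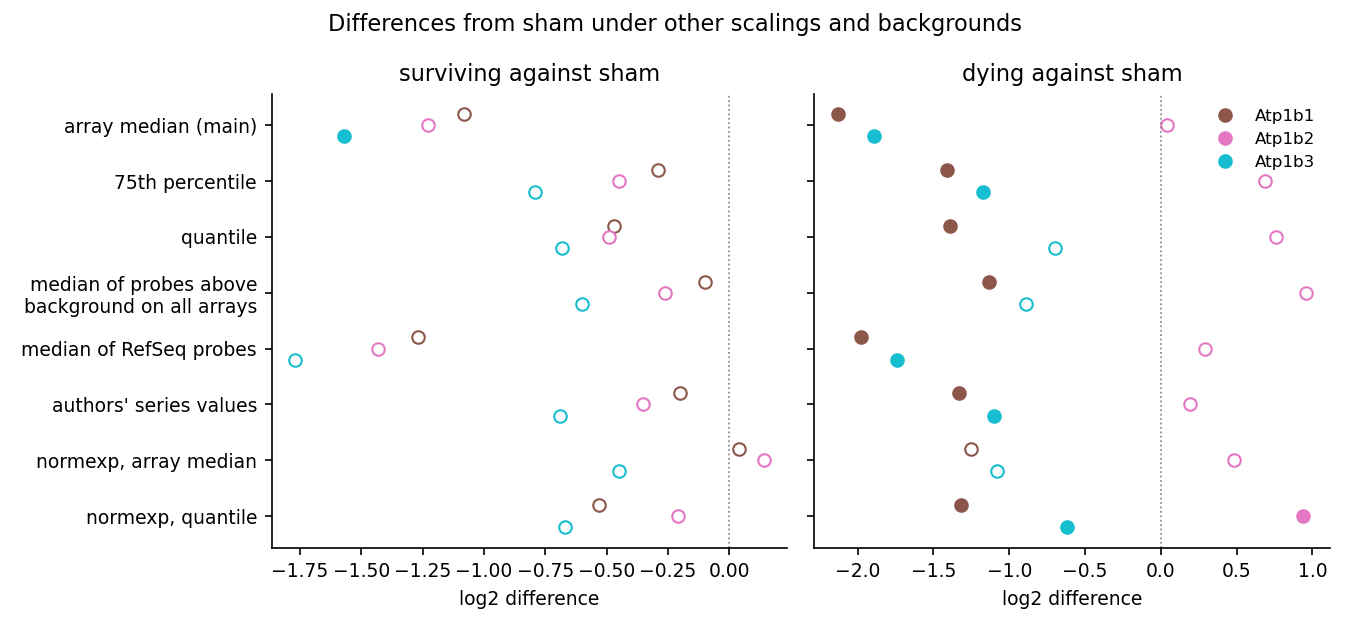
Log2 difference from sham of Atp1b1, Atp1b2 and Atp1b3 in surviving (left) and dying neurons (right) under 8 scalings and backgrounds, filled where the adjusted p was under 0.05. Atp1b1 and Atp1b3 stayed negative in dying neurons in all 8, from -2.13 to -1.13 and from -1.89 to -0.62, while Atp1b2 lay from 0.04 to 0.96.

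Sham neurons differed from naive neurons by 0.63 for Atp1b1, 0.19 for Atp1b2 and 0.47 for Atp1b3 (adjusted p = 0.882, 0.919 and 0.882 with limma), within 1 slide. Calls numbered 0 of 3 members and 0 of 20676 probes (0%), with 997 probes (4.82%) and 0 members at an unadjusted p under 0.05. Sham and naive arrays were apart for 2 of 3 members and for 44.1% of probes, and the median of all probes was 0.37. Under other scalings Atp1b2 turned negative in 6 of 8 (-0.25 to 0.19), and Atp1b1 and Atp1b3 stayed positive.

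**Figure D3:**
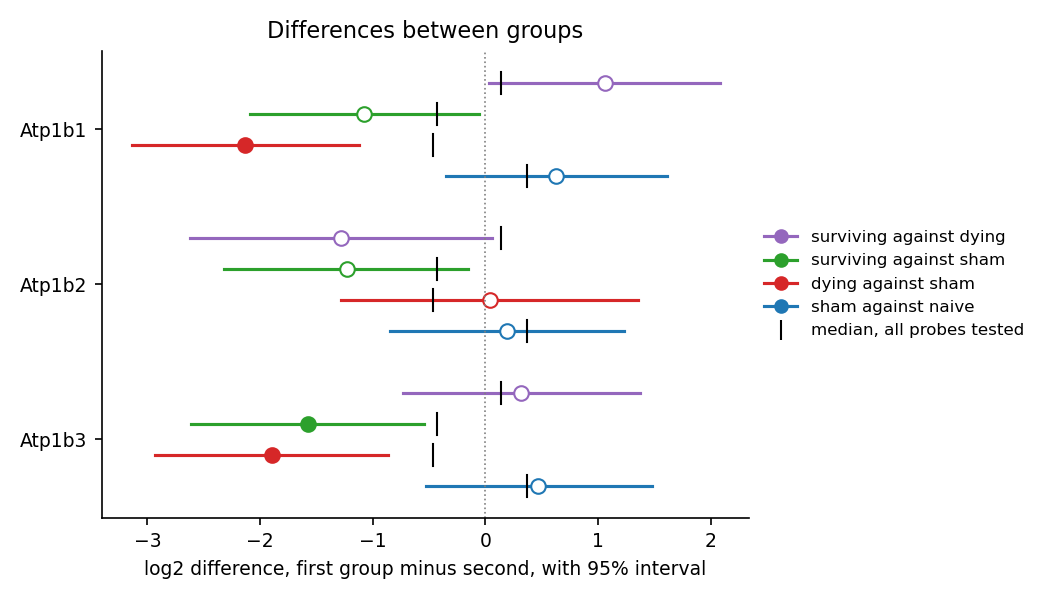
Log2 difference of each beta subunit in the 4 comparisons with its 95% interval from limma, filled where the adjusted p was under 0.05, and a black mark for the median of all probes tested. In the main setting calls were made for Atp1b3 in both comparisons with sham and for Atp1b1 in dying neurons.

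A difference between 2 probes on the same array does not depend on dividing each array by a constant, and shows unequal change without saying which gene changed. Atp1b1 minus Atp1b3 was 5.11 and 4.73 (naive), 5.04 and 5.11 (sham), 5.35 and 5.80 (surviving), and 4.58 and 5.09 (dying). Both surviving arrays exceeded every other array, by 0.74 on average over dying arrays (1.67-fold). This difference was 0.48 without dying replicate 1 and 1.0 without dying replicate 2. The exact permutation test, two-sided, gave p = 0.333, the smallest that 6 divisions of 4 arrays allow, so the design could not reach 0.05. Atp1b1 minus Atp1b2 was 3.04 and 3.06 (naive), 3.27 and 3.70 (sham), 3.67 and 3.63 (surviving), and 1.0 (dying replicate 1), with 2.93 in dying replicate 2 if its spot is kept. Surviving neurons were above dying neurons in this pair too, by 2.65 on 1 dying array and by 1.68 on both. In Atp1b2 minus Atp1b3 they were below, by -1.65 on 1 dying array. With all spots kept this pair overlapped, at 1.68 and 2.17 (surviving) and 3.58 and 2.17 (dying).

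**Figure D4:**
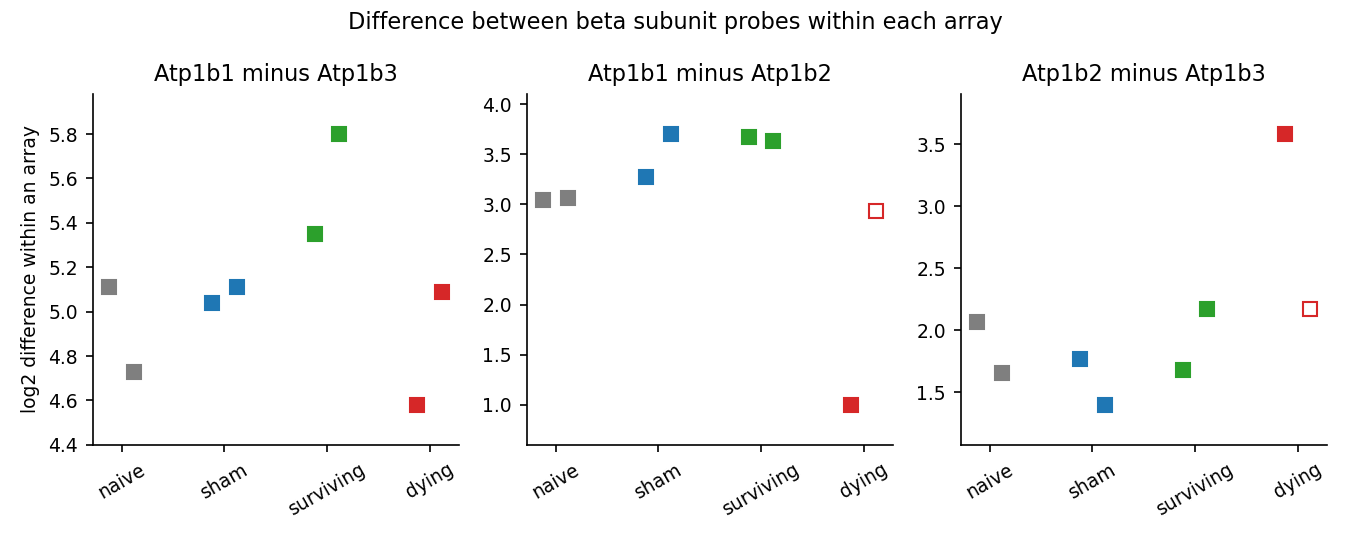
Log2 difference between the main probes of 2 beta subunits within each array, with open squares for dying replicate 2 with all spots kept. In Atp1b1 minus Atp1b3 the surviving arrays, at 5.35 and 5.80, were above the dying arrays, at 4.58 and 5.09.

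Over the 8 arrays, which share slides and groups, Atp1b1 correlated with Atp1b3 at r = 0.906, and Atp1b2 over 7 arrays with Atp1b1 at 0.167 and Atp1b3 at 0.547. Among 5497 other named genes measured on all arrays, those most like Atp1b1 were Txndc13 (0.995), Anxa7, Mrpl32 and Mapre3 (each 0.993) and Ugcg (0.992). Those most like Atp1b3 were Sfrs2, now Srsf2 (0.996), Cops3 and Serinc3 (each 0.995), Rbm25 (0.994) and Egr1 (0.993). Those most like Atp1b2 over 7 arrays were Cyp4f2, whose accession is now Cyp4f1 (0.998), Acss1 (0.992), Aldoc (0.990), Vcam1 (0.986) and Hrasls3, now Plaat3 (0.985).

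Of the other pump genes searched, 11 of 15 were on the array: the related gene Atp1b4, FXYD regulators, which bind the pump and change its kinetics, and subunits of proton pumps. In surviving against dying neurons 0 of 9 tested were called. With normexp and quantile normalization 1 was called, beside 801 of 27391 probes. Fxyd6 (-3.17, adjusted p = 0.139), Fxyd5 (-1.49, 0.157) and Fxyd3 (-0.86, 0.606) had the smallest p toward dying neurons, and Fxyd7 (1.46, 0.196), Atp4b (0.21, 0.922) and Fxyd4 (0.09, 0.932) toward surviving neurons. The dying arrays were far apart for Fxyd6, at 8.81 and 5.78, with surviving arrays at 3.87 and 4.38. Fxyd7, a regulator mainly found in brain, gave 10.79 and 9.94 (sham), 10.18 and 10.21 (surviving), and 9.16 and 8.30 (dying). Both dying arrays were the lowest of these 6.

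Against sham, 2 of 9 pump genes were called in surviving neurons, beside 18.9% of all probes. These were Fxyd2, higher by 2.13 (adjusted p = 0.0223), and Fxyd4 (adjusted p = 0.0313), whose call rests on sham signals under background and gives a bound under 1, so that no difference is claimed. In dying neurons 5 of 9 were called, beside 44.1% of all probes, with Fxyd2 higher by 2.34, Fxyd5 by 1.95, Atp4a at least 2.02-fold, Fxyd4 again with a bound under 1, and Fxyd7 lower (-1.63) (adjusted p 0.00674 to 0.0459). Atp4a and Fxyd4 were well above background on neither sham array, so they were tested only because they were high in injured rats. Among genes above background on all 4 arrays, 3 of 6 were called in dying and 1 of 6 in surviving neurons. Under the same filter 7156 of 16180 probes were called in dying and 3109 of 18171 in surviving neurons, so both pump counts were near the share of all probes. The list medians were 0.46 and 1.76, beside -0.43 and -0.46 for all probes, but the value in dying neurons is that of Fxyd4 itself. Over the 6 pump genes above background on all 4 arrays the medians were -0.51 and 0.98, so the sign in surviving neurons turned with the filter. Fxyd2, a modulatory subunit of the pump first known from kidney, gave -0.70 and -0.62 (naive), 1.49 and 0.99 (sham), 3.17 and 3.58 (surviving), and 3.90 and 3.26 (dying). Sham arrays were between naive arrays and those of injured rats, without overlap. Against naive, 0 of 7 were called, Fxyd2 having the smallest p (unadjusted p = 0.00281, adjusted p = 0.599). Under the other scalings calls numbered 1 to 4 in surviving and 3 to 5 in dying neurons. The list median in dying neurons fell to 0.31 with normexp, 0.55 with normexp and quantile normalization, and 0.52 without dying replicate 1, where 11 genes were tested. Calls in surviving neurons went to 0 without either sham array or either surviving array, and the list median to -0.60 without sham replicate 2. In dying neurons calls numbered 2 without sham replicate 1, 0 without sham replicate 2, 3 without either surviving array, 1 without dying replicate 1 and 4 without dying replicate 2. Fxyd7 was called lower only under the main setting and under normexp with quantile normalization among the 8 settings.

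Transporters that draw on the sodium or potassium gradient are downstream users of the pump, and 30 of 31 genes of their list were on the array. The list also held Slc17a6 and Slc17a7, vesicular glutamate transporters that run on the proton gradient of the vesicle. Between surviving and dying neurons 0 of 27 tested were called, the smallest p being those of Slc8a2, a sodium-calcium exchanger (at least 2.97-fold higher in surviving, adjusted p = 0.0953), and the glutamate transporters Slc1a1 (1.44, 0.181) and Slc1a2 (1.30, 0.195). In the other direction they included Slc17a6 (-1.54, 0.443) and Slc1a3 (-0.68, 0.489). Slc8a2 was well above background on the surviving arrays only, so it was tested only because it was high there. The list median was 0.24, beside 0.14 for all probes. It was 0.44 without dying replicate 2, beside -0.07, and 0.56 without dying replicate 1, beside 0.13.

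Against sham, 7 of 28 transporters were called in surviving neurons, 5 lower and 2 higher, beside 18.9% of all probes. In dying neurons 12 of 23 were called, 10 lower and 2 higher, beside 44.1%. Counted without direction, both were near the share of all probes. Of all probes, 12.0% were called lower and 6.82% higher in surviving neurons, and 29.0% and 15.1% in dying neurons. The list medians were -1.02 and -1.46, beside -0.43 and -0.46 for all probes. The higher calls, Slc6a11 and Slc8a3 in both, were of probes well above background on neither sham array, tested only because they were high in injured rats. Among genes above background on all 4 arrays, 5 of 17 were called in surviving and 10 of 16 in dying neurons, all lower. Under this filter 3109 of 18171 probes were called in surviving neurons, 2905 of them lower. In dying neurons 7156 of 16180 probes were called, 6036 of them lower, so most calls of all such probes were also lower. The phosphate transporter Slc20a1 fell in both (-2.95 in surviving and -2.46 in dying neurons), as did the amino acid transporter Slc38a2 (-1.92 and -1.89) and the calcium exchanger Slc24a3 (-1.53 and -2.23). Called lower in dying neurons besides were Slc24a2 (-3.82, with dying arrays far apart at 0.11 and 3.76 and sham at 5.07 and 6.43), Slc1a1 (-3.02), Slc1a2 (-2.29), the neuronal chloride extruder Slc12a5 (-1.46) and Slc38a1 (at least 4.89-fold). Slc6a11, a GABA transporter, was called higher in both (at least 6.60-fold and 3.78-fold), and Slc8a3 in surviving neurons (at least 1.26-fold), while its call in dying neurons had a bound under 1 and rests on sham signals under background. Dimmer probes of Slc24a3, Slc38a2 and Slc8a1 were well above background in both injured groups and on neither sham array, opposite in direction to the main probes, and no size is given for them. The list median stayed negative in dying neurons under all 8 settings (-1.46 to -0.45) and reached 0.04 in surviving neurons with normexp. Calls in surviving neurons went to 0 without sham replicate 1, sham replicate 2 or surviving replicate 1 and to 1 without surviving replicate 2, and calls in dying neurons to 3 without sham replicate 1 and 6 without sham replicate 2. Against naive neurons, 0 of 18 were called in sham, with a list median of 0.52.

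**Figure D5:**
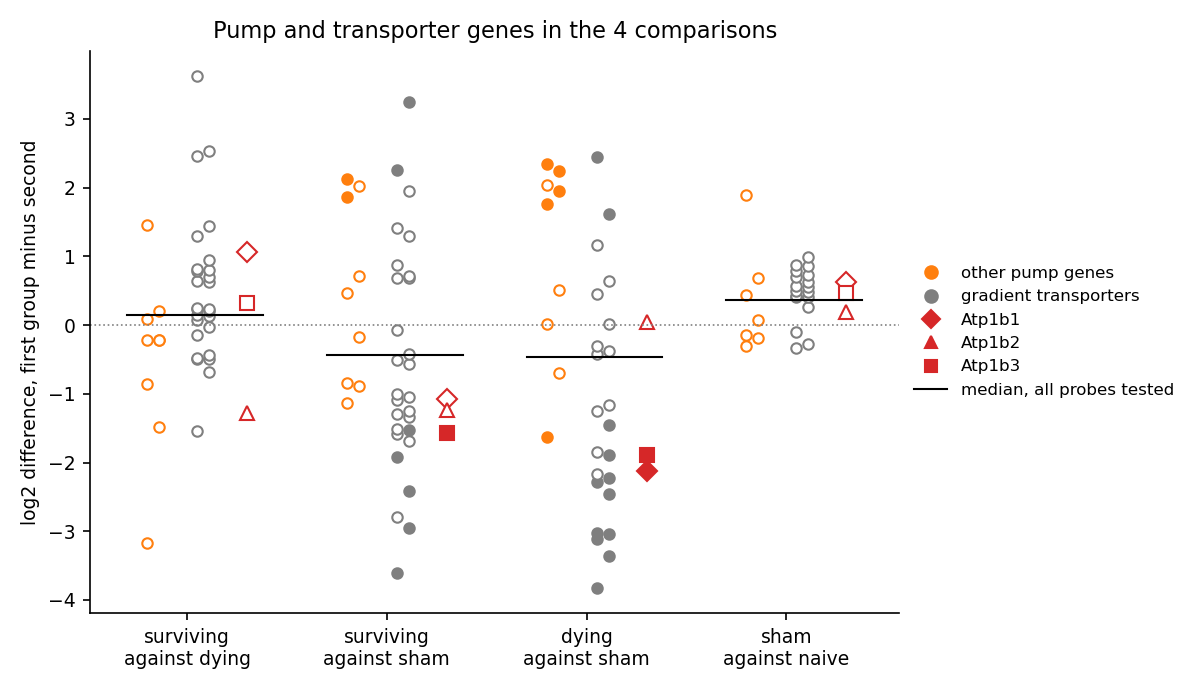
Log2 differences of the other pump genes, the gradient transporters and the 3 beta subunits in the 4 comparisons, filled where the adjusted p was under 0.05, with a line at the median of all probes tested. Transporters had medians of -1.02 and -1.46 against sham, and some of the higher points are probes that were not above background in sham.

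Markers of the captured neurons and of other cell types differed between arrays. In captured pools fewer cells of a type and less RNA per cell cannot be told apart. The log2 of the summed signal of 6 pyramidal neuron markers was 12.48 and 12.98 (naive), 13.39 and 13.18 (sham), 12.54 and 12.51 (surviving), and 11.58 and 11.66 (dying), with Nrgn making up 85.4% of it. All 6 were measured, and 2 were called lower in dying neurons than in sham, beside 29.0% of all probes. Microglia and macrophage markers (8 genes, C1qb the brightest) gave 6.98 and 7.98, 8.05 and 7.92, 8.26 and 8.40, and 10.93 and 10.06 in the same order. Of 7 tested, 4 were called higher in dying neurons than in sham, beside 15.1% of all probes. Astrocyte markers (7 genes, Slc1a3 84.5% of the sum) gave 9.49 and 9.64, 10.27 and 9.65, 8.76 and 8.82, and 10.00 and 8.89. Surviving arrays and dying replicate 2 were the lowest for this sum and for Atp1b2 with all spots kept. Slc1a3 and Gja1 (3.44, 3.72 and 3.29, against 5.11 to 7.21 elsewhere) had this order, and Gfap, Aldh1l1, Slc1a2 and Aqp4 did not. Gfap was highest on these same arrays (3.57, 2.73 and 3.62, against 1.10 to 2.10 elsewhere). Aldh1l1 on dying replicate 2 (4.89) was above both naive arrays (4.65 and 4.61). Slc1a2 was lowest on the dying arrays (2.49 and 2.97), and Aqp4 on naive replicate 1 (0.14). S100b was not well above background on any array of injured rats, so its order was not read. The genes of the list thus did not all move alike.

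Oligodendrocyte precursor markers (4 genes, Olig1 87.1%) gave 8.67 and 8.58, 9.17 and 8.76, 7.98 and 8.13, and 9.98 and 9.1 in that order of groups, so that surviving arrays were the lowest and dying arrays overlapped sham. Interneuron markers (5 genes, Pvalb 44.6%) gave 7.52 and 8.58, 8.28 and 7.91, 6.98 and 7.05, and 8.80 and 6.81, the dying arrays being the highest and the lowest of all. Markers of endothelium and pericytes (5 genes, the pericyte gene Pdgfrb 64.6%) gave 5.14 and 6.04, 5.74 and 5.37, 5.24 and 4.88, and 7.38 and 5.45, with only dying replicate 1 above the range of the naive and sham arrays. Leukocyte markers (5 genes, S100a8 46.7%) were highest on the dying arrays (3.51 and 4.15, against 0.91 to 2.20 elsewhere), and choroid plexus markers (4 genes, Ttr 95.7%) were high on sham replicate 2 (10.83), surviving replicate 1 (8.73) and dying replicate 2 (8.90). The part of these cell types in the beta subunit differences was not tested.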

How the data were processed

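Pools of CA3 neurons captured by laser were measured on 8 single-colour Agilent arrays. The authors made the processed intensity of each spot with Agilent Feature Extraction 9.1.3.1, by subtracting background and detrending, per the file headers, and deposited mean and local background intensities besides. Marks of 0 or 1 for spots above background, saturated or non-uniform are other values that the authors deposited. The authors also deposited a signal per probe. For 99.9% or more of bright probes on every array, it lay within 1% of the processed one divided by 1 constant per array.

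Spots marked non-uniform were dropped, the rest averaged by probe, arrays divided by their median over 41012 probes, values under 0.01 set to 0.01 and log2 taken. A probe was tested if well above background on each array of some group among those compared, with limma 3.58.1 in R 4.3.3, using 1 mean per group over 8 arrays, two-sided tests, Benjamini-Hochberg adjustment within a comparison and a threshold of 0.05. The code was tested on simulated data. Tables and plots used Python 3.11.15, pandas 2.3.3, numpy 2.4.6 and matplotlib 3.10.9. Precision is limited by 2 arrays per group.

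The main probe of a gene was the brightest one with a RefSeq accession. Named were all members, every list gene past the threshold, the 3 of smallest p per direction in the surviving against dying comparison, and the 5 genes most correlated with each member. Of 24588 probes with a RefSeq accession, 10721 were found in the RefSeq table of GRCr8, and other names are those of the array. Lists held pump genes, gradient transporters and markers of 9 cell types. Catalytic subunits of the pump, some other genes of the lists and 1 marker list are not reported here. Members and lists were chosen with earlier results of these data known. Alternatives covered scaling, background, filters, floor, spots, probes, arrays in the fit, replicate block and left-out arrays.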

Additional observations from a re-analysis of the deposited data

How the results depend on the processing

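Precision is limited by 2 arrays per group and by signal over background. The falls of Atp1b1 and Atp1b3 in dying neurons kept their direction under every scaling and background tried. Filters do not alter a difference. Leaving out an array could not turn these signs, since both dying arrays lay below both sham arrays. Both calls were lost without either sham array, as given above. Injury cannot be told apart from slide or extraction protocol in the comparisons with sham. Causes of the changes below were not tested unless stated.

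Counts of probes called moved as follows. Surviving against dying, 0 in the main setting, gave 2 with the series values and 801 with normexp and quantile normalization, and 0 to 5994 when 1 array was left out. Surviving against sham, 5074, gave 2565 with normexp, 2999 with normexp and quantile normalization, 3109 with probes above background on all 4 arrays, 12161 with only the groups compared, and 253 to 8557 with 1 array left out. Dying against sham, 11289, gave 7240 with normexp, 7156 with probes above background on all 4 arrays, and 3048 to 13426 with 1 array left out. Sham against naive, 0, gave 1 with quantile normalization, 118 with only the groups compared, and 0 to 22 with 1 array left out. Where leaving out an array left a group with 1 array, that array was assumed to vary like the others.

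Normexp and quantile normalization together, and the crossed pairing, were chosen after seeing the data. Normexp was first fitted with spots of non-uniform local background kept. It then called 0 probes in all 4 comparisons, because local backgrounds of up to 64100 on naive replicate 1 and 20400 on dying replicate 1, beside medians of 59.0 and 52.0, pulled the fitted background mean to -476 and -294. Those spots, 3 and 11, were left out after this was seen, as were all such spots on other arrays, and the values given here are without them.

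Signs turned only in differences that had not passed the test. With normexp, Atp1b1 and Atp1b2 in surviving against sham became 0.04 and 0.14, and the dim Atp1b2 probe -0.14. Atp1b2 in dying against sham became -0.62 with all spots kept, -0.53 as a mean over probes and -0.21 without sham replicate 2 (-0.21 to 0.29 over left-out arrays). In sham against naive it became -0.10 with the 75th percentile, -0.25 with quantile normalization, -0.23 with the median of probes above background on all arrays, -0.25 with normexp, -0.14 with the series values, -0.21 with normexp and quantile normalization, and -0.06 without sham replicate 1 (-0.06 to 0.44 over left-out arrays). Atp1b3 in surviving against dying became -0.03 with the median of RefSeq probes and -0.04 with normexp and quantile normalization. Atp1b1 minus Atp1b2 moved from 2.65 to 2.36 with normexp, 1.68 with the series values or all spots kept, and 1.56 as a mean over probes. Atp1b2 minus Atp1b3 moved from -1.65 to -0.95 with the series values or all spots kept, and -0.57 as a mean over probes.

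Replicate numbers are shared by the groups without a stated pairing, and replicate differences correlated across 15250 probes at -0.19 between surviving and dying neurons and at -0.06 to 0.07 otherwise. With the replicate block 0, 3488, 10397 and 0 probes were called in the 4 comparisons, and the Atp1b3 call in surviving against sham was lost (adjusted p 0.0832), as it was with no filter (0.0561) and all spots kept (0.0552), in a range of 0.0142 to 0.447 over settings and left-out arrays. The crossed pairing called 0, 3772, 10790 and 0.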
